A study of Rattus norvegicus with 10 samples.

Results

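Genes of the hepatic stellate cell and of the liver's extracellular matrix were followed in the livers of rats exposed to sulfur mustard (SM), with and without a plant-derived treatment (MSTF). The set held 43 genes, chosen by name: collagens, the enzymes that build and degrade matrix, matrix glycoproteins and proteoglycans, markers of the stellate cell, and the growth factors Ccn2 and Tgfb1. Probes were assigned to these genes through the accession that each probe carries. Of the 43 genes, 35 had a named probe among the 41012 probes of the array, and 32 of these gave a signal above background that could be tested. The other 8 genes, Col5a2, Col6a3, Col4a2, Col15a1, Nid1, Lamb1, Lox and Acta2, were not matched to a probe and are not analysed here.

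SM is an alkylating agent that was used as a chemical weapon. All animals were male Sprague Dawley rats, and whole liver tissue was taken 24 h after SM. The 4 rats of the SM group received a single subcutaneous dose of 3.5 mg/kg SM in propylene glycol, which is 0.7 of the LD50. The 3 rats of the SM + MSTF group received the same SM dose and, 1 h later, 120 mg/kg MSTF into the stomach, and the 3 control rats received solvent alone. MSTF joins salvianolic acids of the sage Salvia miltiorrhiza to the total flavonoids of Anemarrhena asphodeloides. Each rat gave 1 one-colour Agilent array.

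Stellate cells lie between the sinusoidal endothelium and the hepatocytes, where they store vitamin A as retinyl ester. After liver injury they can become myofibroblasts, which express contractile proteins and secrete fibrillar collagen, and TGF-beta and PDGF are known drivers of that step. The matrix they maintain is made of fibrils of types I, III and V collagen, of a loose basement membrane of type IV collagen and laminin, and of proteoglycans such as biglycan and decorin. Matrix metalloproteinases degrade it, and the TIMP proteins inhibit them.

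The promoters of 28 of the 43 genes were found in a RefSeq table of the assembly GRCr8. The promoters of 3 genes are shown to give the sequence context of the results: Col1a2, the fibrillar collagen gene with the smallest adjusted p against control, Col4a1, whose probes gave different results, and Timp1, whose signal was almost the same in all groups. Each is the 250 bases before the gene start, 5′ to 3′ on the strand of the gene. Both strands were searched for short motifs, and capitals mark each match. TATAAA stood for the TATA box. The CCAAT box was searched by its own letters, and the GC box as GGGCGG.
Col1a2 promoter, GRCr8 chr4:33518307-33518556, plus strand: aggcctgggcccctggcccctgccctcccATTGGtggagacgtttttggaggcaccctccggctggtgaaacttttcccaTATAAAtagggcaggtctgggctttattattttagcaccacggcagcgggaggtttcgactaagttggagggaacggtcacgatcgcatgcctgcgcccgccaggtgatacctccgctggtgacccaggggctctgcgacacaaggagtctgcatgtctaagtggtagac
Col4a1 promoter, GRCr8 chr16:84885347-84885596, plus strand: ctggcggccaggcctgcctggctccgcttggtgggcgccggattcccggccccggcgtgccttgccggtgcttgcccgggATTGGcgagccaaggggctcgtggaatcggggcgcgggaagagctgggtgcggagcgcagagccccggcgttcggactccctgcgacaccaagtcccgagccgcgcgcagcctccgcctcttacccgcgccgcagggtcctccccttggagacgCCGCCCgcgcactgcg
Timp1 promoter, GRCr8 chrX:3771123-3771372, minus strand: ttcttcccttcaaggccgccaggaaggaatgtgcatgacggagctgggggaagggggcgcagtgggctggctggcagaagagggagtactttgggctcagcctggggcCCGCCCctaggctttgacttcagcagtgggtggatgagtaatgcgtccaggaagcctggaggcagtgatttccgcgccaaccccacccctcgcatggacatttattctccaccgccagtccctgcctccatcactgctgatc
The Col1a2 window held a CCAAT box on the reverse strand, beginning 221 bases before the start, and a TATA box 170 bases before it. In the Col4a1 window a reverse CCAAT box lay at 170 bases and a reverse GC box at 16 bases before the start. Timp1 had 1 reverse GC box at 142 bases. A GC box was found in 16 of the 28 promoters (57.1%), against 30.5% of 33469 promoters of the same length. The CCAAT box was found in 10 of 28 (34.0% of all promoters) and the TATA box in 5 of 28 (12.9%). TGACTCA, the AP-1 site, was found in 1 (4.05% of all), which was Ecm1, and GTCTAGAC, a SMAD box, in none (0.173% of all). No overlap between different motifs was seen in the 3 windows shown, and a match of letters does not show that a factor binds.

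The level of a probe is given as its log2 signal, the background-subtracted intensity after quantile normalization, and levels are compared only within a probe. Arrays had 51.9% to 61.4% of probes well above background and no saturated spot. Pairs of arrays correlated at 0.977 to 0.991 within groups and at 0.969 to 0.988 between groups (Pearson's r across probes, which are no replicates). The 3 control arrays and SM + MSTF replicate 3 shared a slide, the 4 SM arrays filled the second slide, and SM + MSTF replicates 1 and 2 were on the third. SM and its slide cannot be told apart, and only SM + MSTF replicate 3 could be compared with control within a slide. In whole liver, fewer cells of a type and less RNA per cell cannot be told apart either.

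Stellate cells were looked for through 10 of their markers, among them Lrat, Reln and Cygb. Gfap and Ngfr were near background, well above it on all arrays of the SM group only (4 of 4), on 2 of 3 control arrays, and on 1 and 2 of 3 SM + MSTF arrays. The mean log2 signal of the 10 markers was 7.72 to 7.99 in control arrays, 7.87 to 8.11 in SM and 7.66 to 7.95 in SM + MSTF. Albumin (Alb), the hepatocyte product used to check the labelled tissue, had a log2 signal of 18.01 to 18.30 over the 10 arrays. Quantile normalization gives every array the same set of values, which holds the brightest probes to a narrow range. The range of Alb therefore says little about hepatocyte content. Portal fibroblast markers were divided: Thy1 and Cd34 stayed near background on all 10 arrays, whereas Entpd2 and Eln were well above it on all 10. Fbln2 had no matched probe.

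No gene of the set passed the test in any of the 3 comparisons. The test was limma fitted to all 10 arrays, and a call needed a Benjamini-Hochberg adjusted p under 0.05 over 22991 probes and a fold change of at least 1.5. For SM versus control, 0 of 32 genes were called, against 2.41% of all probes tested. For SM + MSTF versus control 0 of 32 were called (0% of all probes), and for SM + MSTF versus SM 0 of 32 were called (1.26% of all probes). At an unadjusted p under 0.05, whatever the fold, limma counted 5, 7 and 3 of 32 genes in these comparisons, against 16.4%, 9.54% and 15.9% of all probes. With a fold of at least 1.5 as well, the counts were 2, 2 and 0, against 5.61%, 3.01% and 5.36%. The methods' t-test on the same values called 2 genes in SM versus control, Col1a1 and Col1a2, both lower, at its unadjusted p (4.92% of all probes) and after Benjamini-Hochberg adjustment (1.39%), and 0 in the other comparisons.

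The direction of the differences was uneven. In SM, 21 of 32 genes had a fitted value below control, against 44.1% of all probes, and the median difference of the set was -0.21 on the log2 scale against 0.03 over all probes. All 4 SM arrays lay below all 3 controls for 9 of the 32 genes, and above them for none. Of all probes, 7.96% lay below in this way and 10% above. In SM + MSTF, 22 of 32 genes were fitted below control (49.1% of all probes), with a median of -0.20 against 0.00459. Every SM + MSTF array lay below the controls for 8 genes (7.4% of all probes) and above them for 2 (8.03%). Between SM + MSTF and SM the median was -0.01, and the 2 groups overlapped for all 32 genes, while 14.7% of all probes did not overlap.

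**Figure D1:**
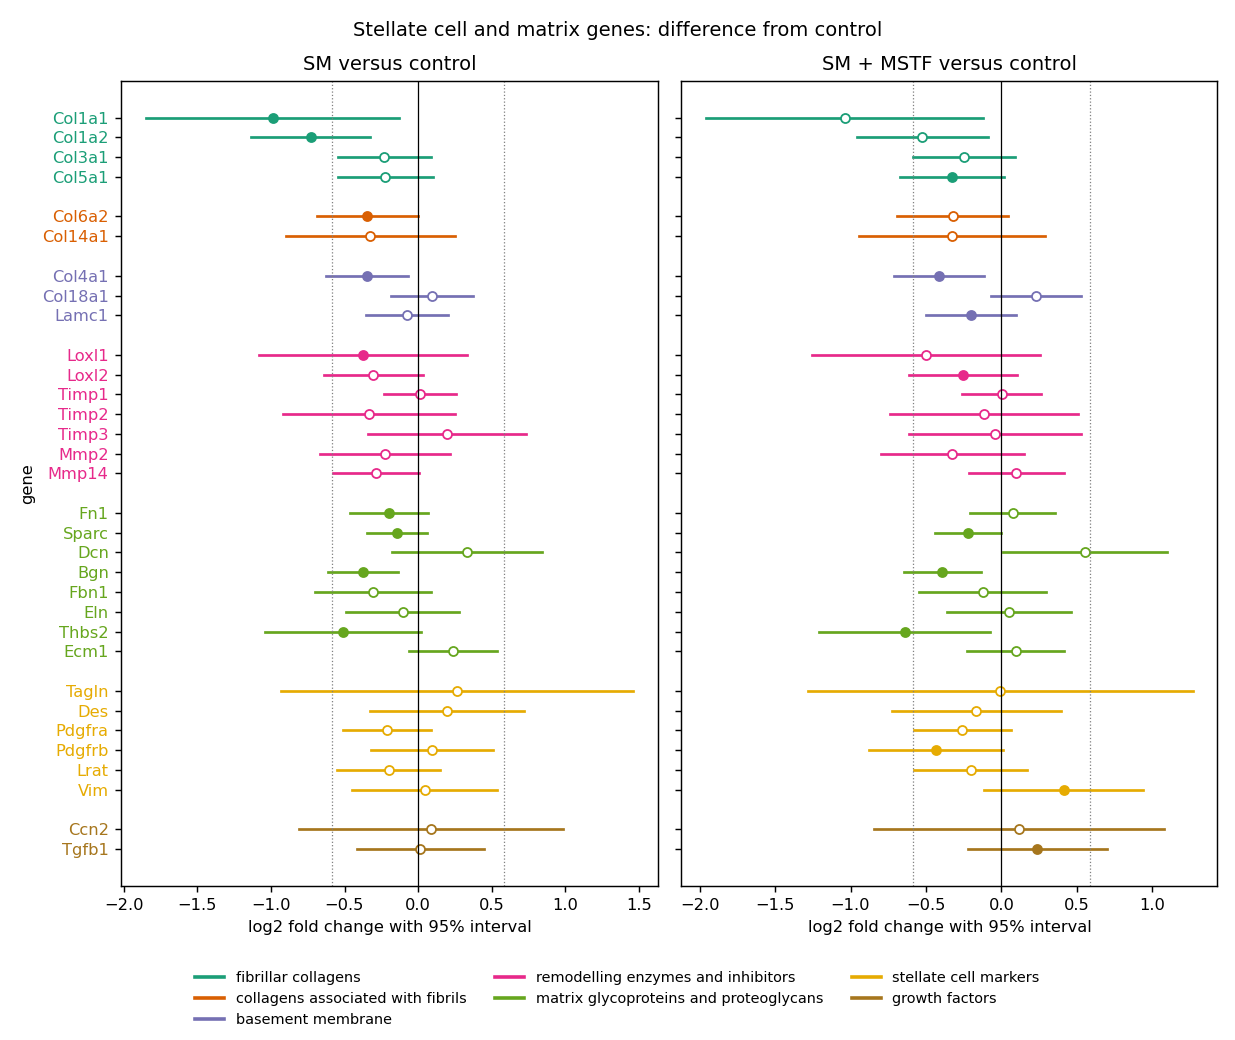
Log2 fold change of the 32 tested genes against control (x axis, log2 units) with its 95% interval from limma, for SM (left) and SM + MSTF (right), coloured by role. Filled points mark genes whose arrays did not overlap those of control, and dotted lines mark 1.5-fold. Col1a1 and Col1a2 lie farthest to the left in SM, at -0.99 and -0.73.

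The fibrillar collagens had the lowest median of the 7 groups of genes in SM. All 4 tested genes, Col1a1, Col1a2, Col3a1 and Col5a1, had fitted values below control in SM, with a median of -0.48, and again in SM + MSTF, with a median of -0.43. Col1a1 and Col1a2 encode the chains of type I collagen, the main fibril protein of scar tissue.

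Col1a1 had a log2 signal of 10.91, 11.14 and 10.99 in control replicates 1 to 3, 9.80, 10.25, 10.16 and 9.88 in SM replicates 1 to 4, and 9.56, 11.16 and 9.20 in SM + MSTF replicates 1 to 3. The SM arrays lay wholly below the controls, whereas the SM + MSTF arrays were split: replicate 2 was level with the highest control and replicates 1 and 3 were below every SM array. SM was 1.98-fold lower than control (log2 fold change -0.99, SE 0.38, limma adjusted p = 0.235). SM + MSTF was 2.06-fold lower than control (-1.04, SE 0.41, limma adjusted p = 0.480), a value that was -1.63 without SM + MSTF replicate 2 and -0.65 without replicate 3. Set against SM, SM + MSTF was at -0.05 with a 95% interval of -0.91 to 0.81, so that a 1.5-fold difference in either direction lay within it.

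A second Col1a1 probe gave a smaller difference. Its log2 signal was 10.28, 10.02 and 9.85 in control, 9.59, 9.58, 9.86 and 9.48 in SM, and 9.59, 10.25 and 9.27 in SM + MSTF. SM replicate 3 reached into the control range, and SM differed from control by -0.42 (SE 0.22, limma adjusted p = 0.373). In SM + MSTF the order of the arrays was as in the first probe, with replicate 2 highest and replicate 3 lowest.

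For Col1a2, control arrays read 13.18, 13.27 and 13.25, SM arrays 12.41, 12.63, 12.53 and 12.46, and SM + MSTF arrays 12.60, 13.22 and 12.32. All SM arrays were below all controls, by 1.66-fold on average (log2 fold change -0.73, SE 0.18, limma adjusted p = 0.0699). SM + MSTF replicate 2 again lay within the control range, and the group differed from control by -0.52 (SE 0.19, limma adjusted p = 0.459). Its second probe read 9.81, 9.84 and 9.83 in control, 9.12, 9.37, 9.11 and 9.16 in SM, and 9.42, 9.98 and 8.86 in SM + MSTF, which gave -0.63 for SM (SE 0.21, limma adjusted p = 0.170). Both probes therefore placed the 4 SM arrays below the controls without passing the adjusted test.

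The calls on these 2 genes depended on which arrays set the error. With only control and SM arrays in the fit, both were called (limma adjusted p = 0.00850 for Col1a1 and 0.00545 for Col1a2), with the same fold changes, as were 3.1% of all probes. Without SM + MSTF replicate 2 both were called in SM versus control (limma adjusted p = 0.0196 and 0.0160, 2.32% of all probes called), and without SM + MSTF replicate 3 Col1a2 alone was called (limma adjusted p = 0.0255, 3.11% of all probes called).

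Col3a1, the type III collagen of reticular fibres, read 13.73, 13.64 and 13.44 in control, 13.45, 13.34, 13.32 and 13.37 in SM, and 13.40, 13.64 and 13.03 in SM + MSTF. Both treated groups overlapped control, and the differences from control were -0.23 in SM (95% interval -0.55 to 0.09) and -0.25 in SM + MSTF. Col5a1, which helps to nucleate fibrils, differed from control by -0.22 in SM and by -0.33 in SM + MSTF, where all 3 arrays were below the controls. Its second probe was at -0.27 in SM and -0.12 in SM + MSTF, and overlapped control in both. The collagens that associate with fibrils were similar in direction: Col6a2 was at -0.34 in SM (SE 0.15, limma adjusted p = 0.301) with all 4 arrays below control, and Col14a1 was at -0.33 with overlapping arrays.

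**Figure D2:**
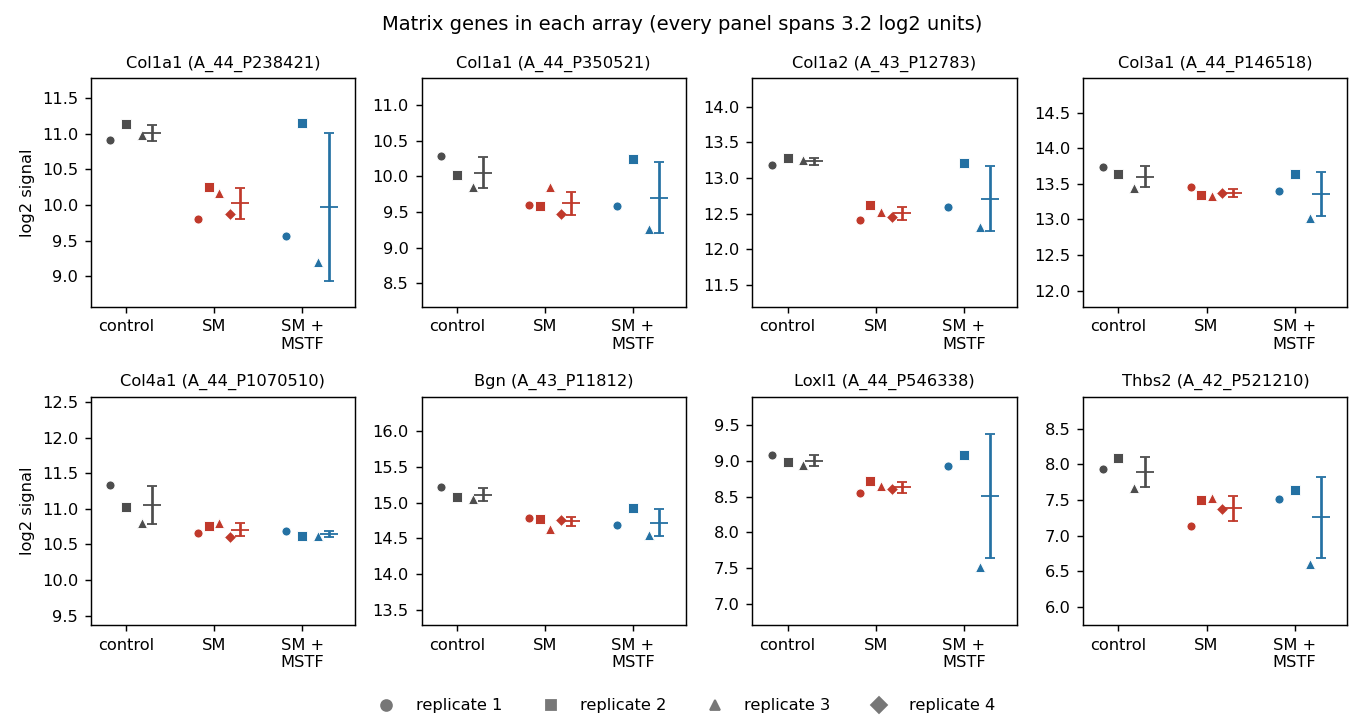
Log2 signal of 8 probes for matrix genes in each array, by group, with the group mean and SD beside the points. Marker shapes give the replicate number, and every panel spans the same number of log2 units. SM + MSTF replicate 2 lies near the controls and replicate 3 lowest in the Col1a1, Col1a2, Loxl1 and Thbs2 panels.

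Basement membrane genes were mixed. Col4a1, a chain of type IV collagen, read 11.34, 11.03 and 10.81 in control, 10.66, 10.76, 10.81 and 10.60 in SM, and 10.69, 10.61 and 10.62 in SM + MSTF on its brighter probe. Every treated array was below the lowest control, although SM replicate 3 only by a margin that is lost in rounding. The differences were -0.35 in SM (SE 0.12, limma adjusted p = 0.195) and -0.41 in SM + MSTF (SE 0.13, limma adjusted p = 0.424). The second Col4a1 probe did not show this. It read 10.29, 10.33 and 10.15 in control, 10.13, 10.41, 10.28 and 10.46 in SM, and 10.21, 10.25 and 9.81 in SM + MSTF, a difference of 0.06 in SM with a 95% interval of -0.23 to 0.36. Col18a1, whose C-terminal fragment is endostatin, was at 0.10 in SM and 0.23 in SM + MSTF. Its second probe was at 0.12 in SM and at 0.36 in SM + MSTF, where all 3 arrays were above the controls (SE 0.13, limma adjusted p = 0.461). Lamc1, the laminin gamma 1 chain, was at -0.08 in SM and -0.20 in SM + MSTF, and its second probe had the opposite sign, 0.17 and 0.27.

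Among remodelling enzymes and their inhibitors, 5 of 7 genes had fitted values below control in SM (44.1% of all probes). Loxl1 and Loxl2 belong to the lysyl oxidase family, which crosslinks collagen and elastin. Loxl1 read 9.09, 8.99 and 8.95 in control, 8.54, 8.73, 8.65 and 8.61 in SM, and 8.92, 9.09 and 7.51 in SM + MSTF. SM arrays were all below control, by -0.37 (SE 0.31, limma adjusted p = 0.609), and SM + MSTF replicate 3 stood apart from its group. Loxl2 was at -0.30 in SM and at -0.25 in SM + MSTF.

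Timp1, a TIMP that activated stellate cells release, read 10.13, 10.22 and 10.11 in control, 10.18, 9.94, 10.18 and 10.38 in SM, and 10.19, 10.20 and 10.09 in SM + MSTF. These ranges overlapped fully, and the difference was 0.01 in SM (95% interval -0.23 to 0.26) and 0.00 in SM + MSTF (-0.26 to 0.26), so that a 1.5-fold change of the group means lay outside both intervals. Timp2 and Timp3 were at -0.34 and 0.19 in SM, with wider intervals of -0.92 to 0.25 and -0.34 to 0.73.

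Mmp2, the gelatinase of stellate cells and fibroblasts, read 9.81, 9.76 and 9.65 in control, 9.64, 9.56, 9.66 and 9.21 in SM, and 9.18, 9.94 and 9.13 in SM + MSTF. The groups overlapped, and SM was at -0.22 (SE 0.20, limma adjusted p = 0.628). Mmp14, the membrane protease that activates pro-MMP2, was at -0.29 in SM and 0.10 in SM + MSTF against control, and 0.38 in SM + MSTF against SM (SE 0.13, limma adjusted p = 0.213).

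Matrix glycoproteins and proteoglycans had 8 of 11 genes tested. In SM, 6 of the 8 were fitted below control (44.1% of all probes). For 4 of them, Fn1, Sparc, Bgn and Thbs2, all SM arrays were below all controls (7.96% of all probes). The second Fn1 probe overlapped control. Thbs2, a matricellular thrombospondin that binds matrix metalloproteinase 2, read 7.93, 8.09 and 7.67 in control, 7.14, 7.50, 7.52 and 7.37 in SM, and 7.52, 7.64 and 6.60 in SM + MSTF. Neither treated group overlapped control. The difference was -0.51 in SM (SE 0.24, limma adjusted p = 0.323) and -0.64 in SM + MSTF (SE 0.25, limma adjusted p = 0.480), and the latter was -0.31 without SM + MSTF replicate 3. The second Thbs2 probe was at -0.22 and -0.43, with overlap in SM + MSTF.

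Bgn encodes biglycan, a small proteoglycan, and its arrays are given because of the values they had. It read 15.21, 15.08 and 15.04 in control, 14.79, 14.77, 14.63 and 14.75 in SM, and 14.68, 14.92 and 14.55 in SM + MSTF. No treated array reached the lowest control. The differences were -0.38 in SM (SE 0.11, limma adjusted p = 0.106) and -0.39 in SM + MSTF (SE 0.11, limma adjusted p = 0.423).

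Sparc, a collagen-binding protein, was at -0.14 in SM and -0.22 in SM + MSTF. Fn1, fibronectin, which hepatocytes also secrete, was at -0.20 in SM and 0.08 in SM + MSTF against control, and 0.27 in SM + MSTF against SM (SE 0.12, limma adjusted p = 0.303). Its second probe was at -0.17 in SM, where the arrays overlapped control, and at 0.31 in SM + MSTF. Against SM that probe was at 0.47 in SM + MSTF (SE 0.17, limma adjusted p = 0.226). Decorin (Dcn), the other small proteoglycan tested, had the opposite sign to Bgn, 0.33 in SM and 0.56 in SM + MSTF (SE 0.24, limma adjusted p = 0.513). Fbn1, Eln and Ecm1 were at -0.31, -0.10 and 0.24 in SM. Lum and Thbs1 were at background throughout, well above it on 0 of 10 arrays, and had no test. Postn, periostin, was well above background on 1 array, control replicate 1, at 7.62, and between 2.18 and 2.32 on the other 9.

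The stellate cell markers lay on both sides of control. In SM 4 of 6 were fitted above control and 2 below (44.1% of all probes below), with a median of 0.07. None of the 6 had arrays that all lay on 1 side of the controls, against 7.96% of all probes below and 10% above. In SM + MSTF 5 of 6 were fitted below control (49.1% of all probes), with a median of -0.19. Lrat, the enzyme that makes retinyl ester in vitamin A storing stellate cells, read 11.17, 11.27 and 10.95 in control, 11.07, 11.15, 10.93 and 10.58 in SM, and 11.13, 10.89 and 10.75 in SM + MSTF. Its difference was -0.20 in both SM (95% interval -0.55 to 0.15) and SM + MSTF (-0.58 to 0.17). Des, desmin, the intermediate filament of rodent stellate cells, read 6.88, 7.17 and 7.03 in control, 7.19, 6.75, 7.32 and 7.62 in SM, and 6.76, 7.34 and 6.47 in SM + MSTF. The treated arrays lay on both sides of the controls, with 0.20 for SM (95% interval -0.33 to 0.72) and -0.17 for SM + MSTF (-0.73 to 0.39).

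The receptors for PDGF were at -0.21 (Pdgfra) and 0.09 (Pdgfrb) in SM. Pdgfrb was at -0.43 in SM + MSTF against control, with every array below the controls (SE 0.20, limma adjusted p = 0.532), and at -0.53 against SM (SE 0.19, limma adjusted p = 0.224). Vim, vimentin, read 10.18, 9.95 and 9.93 in SM + MSTF, above all controls, with a difference of 0.41 (SE 0.23, limma adjusted p = 0.606). Tagln, a contractile protein of myofibroblasts and smooth muscle, spanned 7.69 to 9.49 in SM and 6.83 to 9.04 in SM + MSTF, while the controls spanned 8.07 to 8.20, so the interval for SM was -0.93 to 1.46.

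The 10 stellate cell markers used to check the tissue, which include Lrat, Des and Pdgfrb, were also counted as a list. None was called in the 3 comparisons, against 2.41%, 0% and 1.26% of all probes. In SM, 8 of 10 were fitted above control and 2 below (44.1% of all probes below), with a median of 0.09. The 8 include Gfap and Ngfr, which were tested only because all SM arrays held them well above background. Their higher value in SM was thus partly set by this filter. In SM + MSTF 3 were above control and 7 below (49.1% of all probes below), with a median of -0.15. Set against SM, all 10 were fitted lower in SM + MSTF (53.6% of all probes), with a median of -0.16. Of these, 2, Gfap and Pdgfrb, had an unadjusted p under 0.05 by limma (15.9% of all probes). This count and the p of Gfap were partly set by the same filter. Rgs5, a pericyte marker singled out after its values were seen, read 7.05, 6.86 and 6.56 in control, 7.49, 7.05, 7.95 and 7.60 in SM, and 7.19, 7.77 and 7.31 in SM + MSTF. Both treated groups lay above the controls, SM replicate 2 by less than rounding shows, by 0.70 in SM (SE 0.22, limma adjusted p = 0.143) and by 0.60 in SM + MSTF (SE 0.24, limma adjusted p = 0.479).

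**Figure D3:**
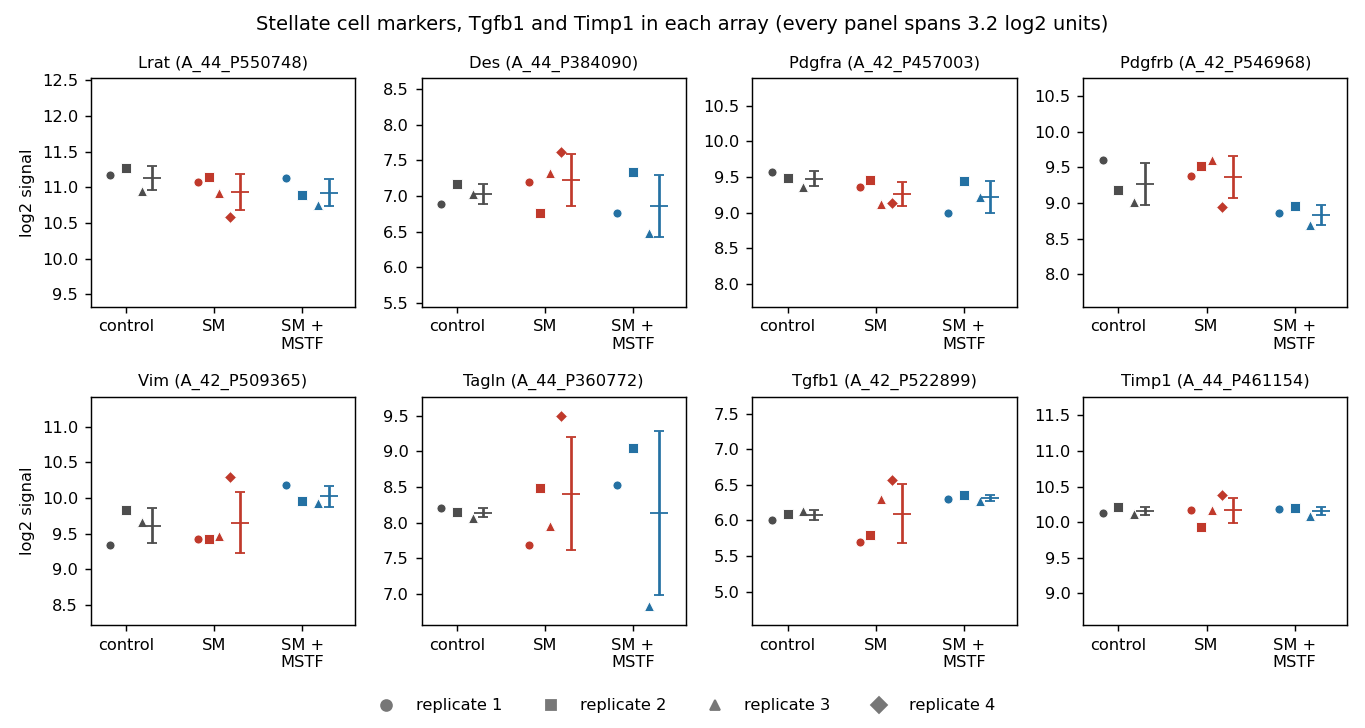
Log2 signal of 6 stellate cell markers, Tgfb1 and Timp1 in each array, drawn as in the plot of matrix genes with group mean and SD beside the points. Treated arrays lie on both sides of the controls for Des and Tagln, and Timp1 lies between 9.94 and 10.38 throughout.

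The growth factors showed no shared difference in SM. Tgfb1, the main fibrogenic cytokine, read 6.00, 6.10 and 6.13 in control, 5.70, 5.80, 6.31 and 6.57 in SM, and 6.31, 6.36 and 6.28 in SM + MSTF. SM arrays lay on both sides of the controls, 2 below and 2 above (difference 0.02, 95% interval -0.42 to 0.45), and the SM + MSTF arrays were all above them (0.24, SE 0.21, limma adjusted p = 0.739). Ccn2, connective tissue growth factor, ranged from 5.83 to 7.21 in SM and from 6.31 to 7.05 in control, with a difference of 0.09 (95% interval -0.81 to 0.99).

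Of 52 further genes of the pathway, covering TGF-beta and PDGF signalling, collagen synthesis and processing, other matrix proteases and matrix receptors, 43 had a probe and 28 were tested. None was called in SM versus control (2.41% of all probes), where 13 were fitted higher and 15 lower (44.1% of all probes lower) with a median of -0.01. None was called in SM + MSTF versus control (0% of all probes) or versus SM (1.26% of all probes), where the medians were 0.06 and 0.02. At an unadjusted p under 0.05 limma counted 1, 2 and 3 of the 28 in the 3 comparisons, against 16.4%, 9.54% and 15.9% of all probes. For the 10 tested genes of collagen synthesis and processing, such as the prolyl and lysyl hydroxylases, 6 were fitted lower in SM (44.1% of all probes). Their median was -0.01, against -0.48 for the fibrillar collagens themselves. These values are a description, and the difference between the 2 lists was not tested.

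The arrays of the SM + MSTF group were more spread than those of the other groups, a difference that was not tested. It was also the only group on more than 1 slide, with replicate 3 apart from replicates 1 and 2. Differences between its rats and between slides therefore cannot be told apart in this spread. The median SD of the 32 genes was 0.13 in control, 0.19 in SM and 0.25 in SM + MSTF, while over all probes it was 0.15, 0.18 and 0.19. SM + MSTF replicate 2 had the highest value of its group for 22 of 32 genes (33.9% of all probes), and replicate 3 the lowest for 20 of 32 (41.6% of all probes). Averaged over the 4 fibrillar collagens, the difference from the control mean was -0.63, -0.41, -0.55 and -0.58 in the SM arrays, and -0.62, 0.00420 and -0.99 in the SM + MSTF arrays. Thus 1 of the 3 SM + MSTF rats was at the control level and the others were at or below the level of the SM rats.

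Each array was also set against the range of the controls. In the SM arrays, 20, 17, 19 and 17 of 32 genes were below all 3 controls. In SM + MSTF replicates 1 to 3 the counts were 19, 11 and 21. Of all probes, 25.9% to 28.3% were below all controls in the SM arrays, 27.9% and 26.8% in SM + MSTF replicates 1 and 2, and 7352 of 22991 in replicate 3. SM + MSTF replicate 3 is the array that shared the control slide, and within that slide its difference from the control mean was -1.82 for Col1a1, -0.92 for Col1a2, -1.50 for Loxl1 and -1.29 for Thbs2. In the fit with slide as a block, which rests on this 1 array, Loxl1 and Thbs2 were called (limma adjusted p = 0.00237 and 0.0286) and Col1a1 was not (limma adjusted p = 0.137), with 1.27% of all probes called.

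**Figure D4:**
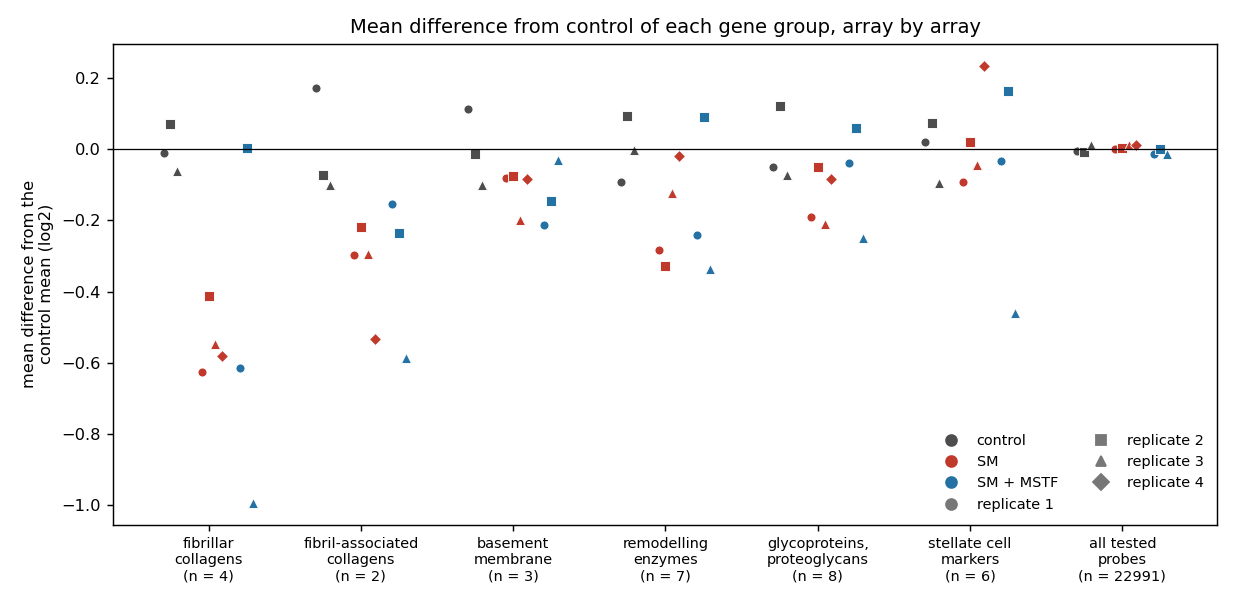
Mean difference from the control mean (y axis, log2 units) for each gene group and for all tested probes, with 1 point per array and the marker shape giving the replicate number. The 4 SM arrays lie between -0.63 and -0.41 for the fibrillar collagens, and all arrays lie close to 0 for all probes.

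Markers of other liver cells were examined beside these values. The mean log2 signal of the 6 hepatocyte markers was 15.40 to 15.42 in control, 15.30 to 15.53 in SM and 15.15 to 15.38 in SM + MSTF. This mean includes Alb, whose range is narrowed by the normalization. That of 4 of 6 sinusoidal endothelial markers was 10.78 to 10.85, 10.69 to 10.87 and 10.58 to 10.92. Of 5 smooth muscle markers 3 were tested, with a mean of 9.02 to 9.52 in control, 9.43 to 9.66 in SM and 8.86 to 9.06 in SM + MSTF. One of them, Myh11, smooth muscle myosin, was called higher in SM than in control (log2 fold change 1.38, SE 0.14, limma adjusted p = 0.00309) and lower in SM + MSTF than in SM (-1.46, SE 0.14, limma adjusted p = 0.00222). The second of these calls was lost by the methods' t-test after Benjamini-Hochberg adjustment (adjusted p = 0.0804), and the second Myh11 probe was at 0.02 in SM. Actg2, smooth muscle actin gamma, was at -0.88 in SM with all arrays below control (SE 0.28, limma adjusted p = 0.147), and Cnn1 and Lmod1 did not pass the filter. The 5 Kupffer cell markers, of the resident macrophages, had a mean of 11.08 to 11.34 in control, 10.54 to 11.36 in SM and 11.40 to 11.47 in SM + MSTF. All 5 were fitted below control in SM (44.1% of all probes) and above both other groups in SM + MSTF. None was called in the 3 comparisons, against 2.41%, 0% and 1.26% of all probes. Against SM their median was 0.46, with Marco, a scavenger receptor named after its values were seen, at 0.96 (SE 0.27, limma adjusted p = 0.147). Of 3 leukocyte markers 2 were tested, with a mean of 6.68 to 7.17 in control, 5.35 to 6.17 in SM and 5.33 to 7.04 in SM + MSTF. One of them, Cd79b, a chain of the B cell receptor complex and likewise singled out, was at -2.18 in SM with all arrays below control (SE 0.65, limma adjusted p = 0.125). It was well above background on all 3 control arrays, on 2 of 4 SM arrays and on 2 of 3 SM + MSTF arrays. Cd79b was therefore tested only through the control group. Its lower value in SM, and the lower leukocyte mean there, were thus partly set by this filter. The tested markers of bile duct (2 of 4), portal fibroblast (2 of 5) and mesothelium (1 of 3) overlapped control in both treated groups. The part of these cells in the values of the set was not tested.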

How the data were processed

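Total RNA of 10 rat livers was measured on one-colour Agilent arrays, 1 per rat, and groups were taken from the labels. The authors read spots with Feature Extraction 10.7, which gives a background-subtracted intensity per spot, and deposited these files together with log2 values normalized by the quantile algorithm. The deposited log2 values were not centred per gene, had array medians of 5.18, and correlated with those used here at 0.99999 or above.

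Control spots and non-uniform spots (0 to 4 per array) were left out. The intensity was quantile normalized, put on the log2 scale and averaged per probe. A probe was kept if all arrays of some group held it well above background (22991 of 41012). Probes were named through RefSeq accessions of GRCr8 (17512 named), whose array coordinates are not given. Each gene was represented by its probe of highest mean signal. limma 3.58.1 (R 4.3.3) was fitted to all 10 arrays with Benjamini-Hochberg adjustment, and was tested on simulated data. Precision is limited by the number of arrays.

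The genes and lists were chosen with earlier results of these data known. A further stellate cell marker is not reported here. Values in every array were given for genes of the set at an unadjusted p under 0.05 with a 1.5-fold change in any comparison, and for Des, Lrat, Col1a1, Col3a1, Col4a1, Timp1, Mmp2 and Tgfb1 (Acta2, also in this rule, had no matched probe). The rule did not cover the further pathway genes or the markers of other cells. Those of Bgn, Loxl1 and Rgs5 were added after the values were seen. Alternatives covered scaling, background correction, filters, probe choice, slide, replicate block, the methods' t-test and leaving out each array.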

Additional observations from a re-analysis of the deposited data

Results flagged for a closer look

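In the SM group, the only group with 4 arrays, 3 of 32 genes had 1 array far from the other 3 by Dixon's test, which chance gives in about 1 group of 20. Only these 32 genes were examined, so no share over all probes stands beside the count. Vim had a ratio of the gap to the group's range of 0.962, with a log2 signal of 10.29 in SM replicate 4 and 9.43, 9.43 and 9.46 in the others. Timp3 had a ratio of 0.834, with 5.88 in SM replicate 4 and 5.12 to 5.25 in the others. Ecm1 had a ratio of 0.844, with 12.72 in SM replicate 4 and 12.89 to 12.92 in the others. The same rat, SM replicate 4, was the distant array in all 3 genes, and it held the highest value of its group for 14 of 32 genes (24.1% of all probes).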

How the results depend on the processing

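Medians and counts were recomputed under 24 settings, and the fitted direction of Col1a1, Col1a2, Thbs2 and Myh11 in the comparisons given above turned under none of them. For SM versus control the number of genes called was 0, except 2 with only the groups compared in the fit, 2 by the methods' t-test with unadjusted p, 2 by the same test after Benjamini-Hochberg adjustment, and 0 to 2 when 1 array was left out. For SM + MSTF versus control it was 0, except 2 with slide as a fixed block, where the median was -0.32. The genes wholly below control numbered 5 in SM + MSTF under normexp correction and 5 with the mean of all probes per gene. Leaving out 1 array gave 9 to 14 such genes in SM (14 without control replicate 3) and 8 to 16 in SM + MSTF (16 without its replicate 2). With fewer arrays in a compared group any probe clears the controls more easily. No share over all probes was computed for these counts under the alternatives, so they describe the set only. Leaving out 1 array also moved the median for SM + MSTF from -0.28 to -0.077 against control (-0.077 without its replicate 3) and from -0.13 to 0.081 against SM (-0.13 without its replicate 2). With the replicate number as a block, 0 genes of the set were called in each comparison, and over all probes 53, 0 and 64 were called, against 553, 0 and 290 without it. After the group mean of each probe was subtracted, same-numbered arrays of different groups correlated at -0.10 to 0.17, so the numbers were not taken as pairs. With slide as a random block the counts over all probes were 85, 0 and 102. Normexp correction called 226 and 60 probes for SM versus control and SM + MSTF versus SM, of which 40 and 19 were higher, against 224 of 553 and 74 of 290. Signal near background limits Thbs1, Lum and Postn, which have no test. The cause of these differences was not tested.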
